A study of Mus musculus with 12 samples.

Results

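Chemokine receptors are G protein-coupled receptors that steer leukocytes along gradients of small secreted ligands. The 8 genes described here, Ccr1, Ccr2, Ccr6, Ccr7, Cx3cr1, Cxcr3, Cxcr4 and Xcr1, were chosen by name from a table of 54532 mouse genes, and all 8 passed the filter on low counts that 14293 genes passed. Dendritic cells (DCs), which take up microbes and present their antigens to T cells, had been isolated from mouse spleen by removing cells that carry CD90.2, CD45R or CD49b and then selecting those that carry CD11c. The labels describe the product as a mixture of type 1 conventional DCs (cDC1, CD8+) and type 2 conventional DCs (cDC2, SIRPα+). Cells came from SLC29A3-/- C57BL6 mice, called KO here as in the sample names, or from WT C57BL6 mice; Slc29a3 encodes ENT3, a nucleoside transporter of lysosomal membranes. An attenuated Salmonella typhimurium strain (STmDfla) was added to them for 30 min, at a multiplicity of infection of 10, and the cells were harvested 3 h after washing; the other groups were left untreated. The 4 groups were KO with bacteria, WT with bacteria, KO untreated and WT untreated, each with 3 libraries numbered 1 to 3. Nothing in the labels ties the 3 libraries of a group to separate animals. The p-values therefore describe no more than the spread among these libraries, which can be technical in part.

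Immature DCs of peripheral tissues are known for receptors of inflammatory chemokines, among them Ccr1, Ccr2 and Ccr6. On maturation they switch on Ccr7, which guides them to T cell zones, and lose several of the others. Xcr1 is restricted to cDC1, while Cx3cr1 is typical of monocytes, many macrophages and some DCs.

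The libraries held between 15693172 and 24074596 gene counts, so that 3 counts, taken as the floor, corresponded to between 0.142 and 0.212 CPM, which are counts scaled by library totals and TMM factors. Libraries numbered 1 stood apart in every group by counts of Y-linked genes and at most 1 count of Xist. Numbers 2 and 3 had no Y-linked count and between 10384 and 18147 counts of Xist. By these counts number 1 held male cells and numbers 2 and 3 female cells, although the labels give no sex. The spread within each group therefore includes a difference of sex. Whether numbers 2 and 3 came from separate animals is not given. Slc29a3 was still counted in KO libraries and did not pass the test between genotypes (log2 fold change -0.46 after bacteria and -0.44 untreated, edgeR adjusted p = 0.0806 and 0.111). The sources used here do not say which part of the gene was deleted, so its count does not check the labels. Of the markers written for cDC1 and cDC2, 12 of 12 and 11 of 12 were tested and none was at 0 in any group. Summed over the list, cDC1 markers ran from 1160 to 1624 CPM in KO and 1135 to 1536 CPM in WT cells after bacteria, and from 1098 to 1763 CPM in KO and 1095 to 1463 CPM in WT cells untreated. The cDC2 sum ran from 1430 to 1769 CPM in KO and 1852 to 2613 CPM in WT cells after bacteria, without overlap. Untreated, it ran from 1217 to 1511 CPM in KO and 1275 to 1374 CPM in WT cells. Within this list after bacteria, Rbpj averaged 399 CPM in KO and 882 CPM in WT cells, and Irf4 465 and 747 CPM. Sirpa went the other way, at 415 CPM in KO and 238 CPM in WT cells. The median difference of the 11 tested cDC2 markers was 0.12 log2 after bacteria, with 1 higher and 1 lower in KO cells.

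The receptors spanned a wide range of levels and kept the same leading pair in every group. Ccr7 had the highest level per length of transcript, with 1603 ± 149 CPM per kb of exons in KO and 2219 ± 162 in WT cells after bacteria, and 797.0 ± 220.3 in KO and 1037 ± 132 in WT cells untreated (mean ± SD, n = 3). It ranked 18th, 13th, 22nd and 19th of the 14293 tested genes in those groups. Cxcr4 came next, at 89.8 ± 36.8 in KO and 208 ± 89.2 in WT cells after bacteria, and 119 ± 18.1 in KO and 225 ± 8.9 in WT cells untreated. The ranges of Ccr7 and Cxcr4 did not overlap in any group. Ccr7 alone made up from 78.4% to 95.02% of the summed level of the 8 genes in a library. Xcr1 held place 3 in KO cells with bacteria and in both WT groups. In untreated KO cells Cx3cr1 held place 3 at 22.6 ± 9.80 CPM per kb, and its range overlapped that of Xcr1 (10.8 ± 3.73). In WT cells Cx3cr1 held place 7 of 8 after bacteria (0.373 ± 0.106) and place 5 untreated (1.78 ± 0.321). Ccr1, Ccr2 and Cxcr3 had group means between 0.244 and 1.32 CPM per kb, and their ranges overlapped in both KO groups.

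**Figure D1:**
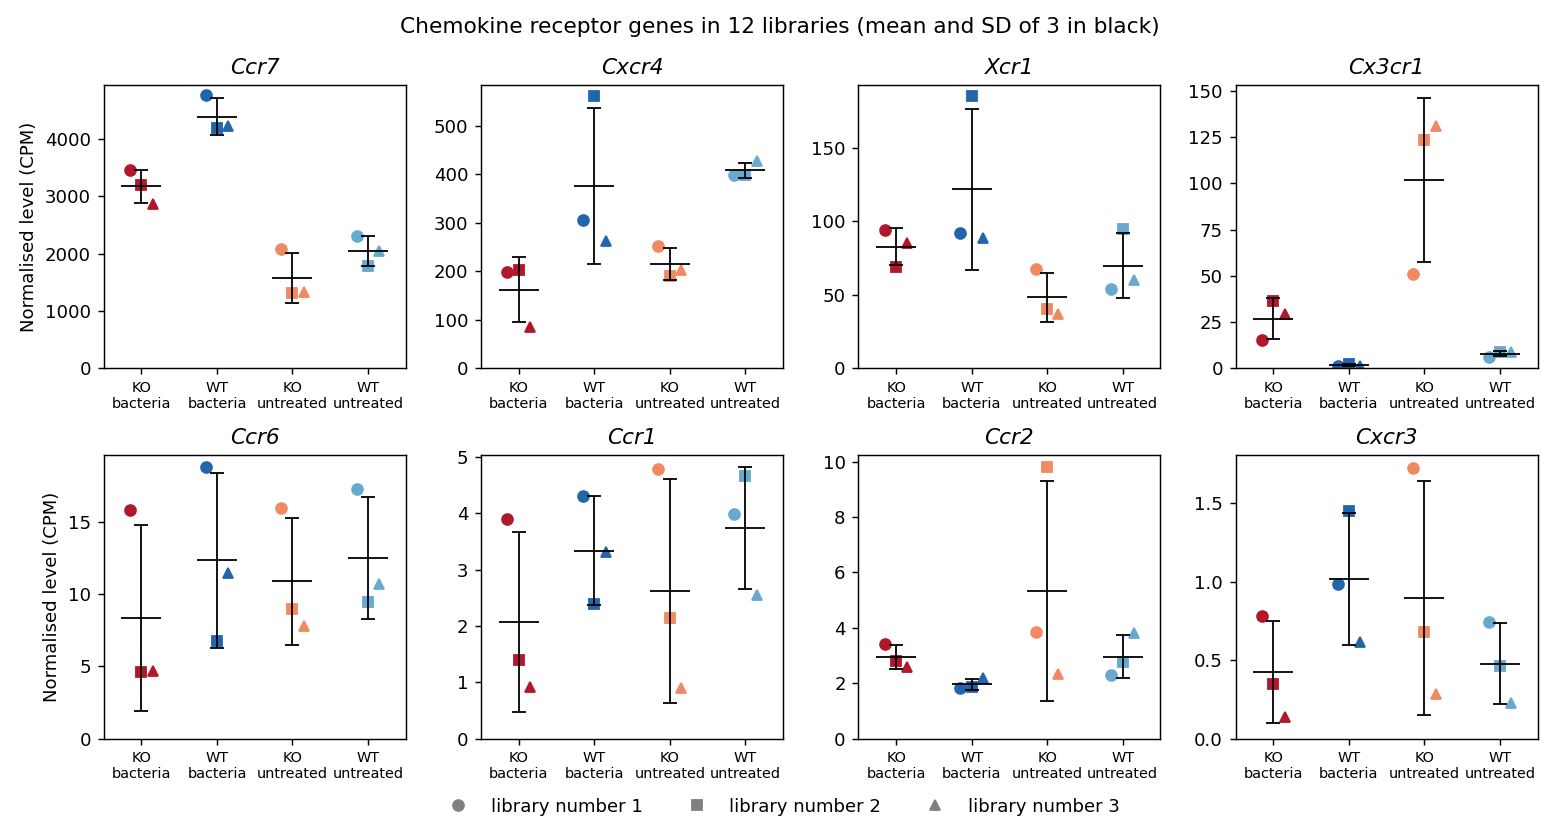
Normalised level (CPM, linear axes from 0) of each receptor gene in the 12 libraries, with symbols for library numbers 1 to 3 and black bars for the mean and SD of 3 libraries in each group. Ccr7 lies higher after bacteria in both genotypes, Cx3cr1 lies lower after bacteria and higher in KO than in WT cells, and Cxcr4 lies lower in KO cells.

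Ccr7 (ENSMUSG00000037944, mm10 chromosome 11, 99144196 to 99155077, minus strand) encodes the receptor for CCL19 and CCL21 that brings mature DCs to T cell zones. Its levels were 3450, 3198 and 2862 CPM in KO cells with bacteria, against 2079, 1313 and 1337 CPM in untreated KO cells (libraries 1 to 3). In WT cells they were 4759, 4191 and 4216 CPM with bacteria, against 2312, 1788 and 2054 CPM untreated. Every library with bacteria lay above every untreated library of either genotype. Ccr7 rose with bacteria by 1.01 log2 in KO cells (SE 0.17, edgeR adjusted p = 0.00138) and by 1.10 log2 in WT cells (SE 0.18, edgeR adjusted p = 0.00119). The difference between these responses was -0.09 log2 (SE 0.25, edgeR adjusted p = 0.999936). KO cells had the lower means in both states, and after bacteria all 3 KO libraries lay below all 3 WT libraries, while the untreated groups overlapped. The genotype difference was -0.47 log2 after bacteria (SE 0.17, edgeR adjusted p = 0.0904) and -0.38 untreated (SE 0.17, edgeR adjusted p = 0.185), and neither passed the threshold of 0.05. Without untreated KO library 1 the differences were -0.47 after bacteria and -0.68 untreated, and both passed (edgeR adjusted p = 0.0278 and 0.00782). Both also passed without the 4 libraries numbered 1, at -0.47 after bacteria and -0.54 untreated (edgeR adjusted p = 0.0228 and 0.0149). With the library number as a block over all groups they were -0.47 after bacteria and -0.40 untreated, and both passed (edgeR adjusted p = 0.0178 and 0.0391). Same-numbered KO and WT libraries deviated together after bacteria, with r of 0.314, 0.171 and 0.115. Untreated, r was 0.323, 0.140 and 0.0787. Unlike numbers exceeded the last value, with r of 0.114 for KO library 2 with WT library 3 and 0.133 for KO library 3 with WT library 2. Libraries were therefore not taken as paired between genotypes. The block fits an effect of the number that all 4 groups share. Both of its values, after bacteria and untreated, therefore rest on a pairing that the data do not show for every number. Over all alternatives the edgeR, DESeq2 or limma adjusted p ran from 0.0178 to 0.273 after bacteria and from 0.00782 to 0.427 untreated.

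The call for Ccr7 was 1 of 2 among the 8 receptors in each response. After bacteria 1 receptor rose and 1 fell in KO cells, where 23% of all tested genes passed (11.6% higher, 11.5% lower). In WT cells again 1 rose and 1 fell, where 18.7% of all tested genes passed (10.6% higher, 8.07% lower). The median log2 response of the 8 was -0.39 in KO and -0.07 in WT cells, beside -0.07 and -0.04 over all tested genes. Groups did not overlap for 3 receptors in KO cells (Ccr7, Cx3cr1 and Xcr1) and 3 in WT cells (Ccr7, Cx3cr1 and Ccr2), beside 40.3% and 38.9% of all tested genes. The 3 tested genes whose pattern over the 12 libraries lay closest to Ccr7 were Dennd3, Dennd5a and Stat5a, with root mean square differences of 0.105, 0.110 and 0.117 log2 after centring each gene. The median over 12284 genes was 0.735. Scaling by library totals alone moved the median response of all genes to -0.38 log2 in KO and -0.35 log2 in WT cells. On that scale Ccr7 still rose, by 0.70 log2 in KO and 0.78 log2 in WT cells (edgeR adjusted p = 0.00912 and 0.00636).

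Ccr7 was set beside other genes of mature DCs, a list of 18 written for this comparison with earlier results of these data known, and all tested. With bacteria 14 rose in KO and 11 in WT cells, and none fell. Of all tested genes 11.6% rose in KO and 10.6% in WT cells. Cd40, the receptor for T cell help, rose by 3.04 log2 in KO and 2.41 log2 in WT cells (edgeR adjusted p = 5.62e-07 and 2.56e-06). Ccl22, a chemokine made by mature DCs, rose by 2.14 log2 in KO and 1.66 log2 in WT cells (edgeR adjusted p = 0.000504 and 0.00343). Between genotypes 3.46% of all tested genes were lower and 9.5% higher in KO cells untreated, and 4.89% lower and 9.21% higher after bacteria. In untreated cells 8 of the 18 were lower in KO than in WT and none was higher. Among them Ccl22 differed by -1.92, Cd80 by -0.86, Cd83 by -0.84 and Cd40 by -0.77 log2 (edgeR adjusted p = 0.00247, 0.0167, 0.0184 and 0.00551). After bacteria 3 of the 18 were lower in KO cells, including Ccl22 (-1.44) and Cd83 (-0.99), and 2 were higher, Pdcd1lg2 (1.17) and Fabp5 (0.79 log2).

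Cx3cr1 (ENSMUSG00000052336, mm10 chromosome 9, 119901616 to 120069879, minus strand) encodes the receptor for CX3CL1, or fractalkine, a chemokine that can stay anchored to the cell that makes it. Its promoter window from RefSeq, 250 bases before to 50 after the start site (GRCm38.p6, chr9:120068247-120068546, minus strand), is shown because the gene passed the test in all 4 comparisons of groups. The window of Cxcr4 (GRCm38.p6, chr1:128592250-128592549, minus strand) is shown as that of the other receptor called between genotypes. The window of Cxcr3 (GRCm38.p6, chrX:101734098-101734397, minus strand) is shown for its motif matches, which are in capitals.
Cx3cr1: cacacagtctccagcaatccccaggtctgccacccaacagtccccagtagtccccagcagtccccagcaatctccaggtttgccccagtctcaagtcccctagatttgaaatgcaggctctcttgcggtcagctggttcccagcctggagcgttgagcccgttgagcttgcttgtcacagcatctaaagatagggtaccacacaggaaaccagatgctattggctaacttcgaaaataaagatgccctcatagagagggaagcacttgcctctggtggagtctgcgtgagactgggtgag
Cxcr4: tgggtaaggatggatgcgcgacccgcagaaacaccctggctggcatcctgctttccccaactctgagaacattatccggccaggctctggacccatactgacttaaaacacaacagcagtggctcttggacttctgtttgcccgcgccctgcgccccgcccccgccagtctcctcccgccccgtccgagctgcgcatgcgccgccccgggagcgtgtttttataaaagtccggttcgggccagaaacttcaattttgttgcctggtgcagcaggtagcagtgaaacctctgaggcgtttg
Cxcr3: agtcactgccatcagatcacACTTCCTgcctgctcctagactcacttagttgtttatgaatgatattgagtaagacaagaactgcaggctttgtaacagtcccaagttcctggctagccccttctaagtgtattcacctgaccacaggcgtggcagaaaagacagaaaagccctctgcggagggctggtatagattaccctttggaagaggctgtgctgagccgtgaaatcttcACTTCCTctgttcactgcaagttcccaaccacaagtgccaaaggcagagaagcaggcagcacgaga
Windows were found for 7 of the 8 genes, with 2 windows for Ccr6, and were searched on both strands for 5 motifs of factors active in DCs. The motifs were NF-kB (GGG, any 2 bases, TTTCC), ISRE (GAAA, any 2 bases, GAAA), PU.1 (AGGAAGT), an ETS-IRF composite (GGAA, any 2 bases, GAAA) and AP-1 (TGA, any base, TCA). Matches of 1 motif can overlap those of another. The PU.1 letters were present, as their reverse complement ACTTCCT, with first bases 230 and 16 bases before the start site of Cxcr3 and 224 bases before that of Ccr6. No motif was matched in the windows of Cx3cr1, Cxcr4, Xcr1, Ccr1 or Ccr2, which says only that these letters are not in these windows. Of 32851 mouse promoter windows of this kind, 9.35% held the PU.1 letters, 7.81% AP-1, 3.44% ISRE, 2.72% the composite and 1.63% NF-kB.

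Cx3cr1 was higher in KO than in WT cells in both states and fell with bacteria in both genotypes. After bacteria it had 15.1, 36.5 and 29.2 CPM in KO libraries 1 to 3, against 1.55, 2.21 and 1.28 CPM in WT libraries. Untreated, it had 51.1, 123 and 131 CPM in KO libraries, against 6.33, 8.77 and 8.91 CPM in WT libraries. All KO libraries lay above all WT libraries, including the KO libraries with bacteria against the untreated WT libraries. KO cells exceeded WT cells by 4.00 log2 after bacteria, or 16.0-fold (SE 0.44, edgeR adjusted p = 0.000368), and 3.67 log2 untreated, or 12.7-fold (SE 0.40, edgeR adjusted p = 0.000336). Among the 14293 tested genes ordered by p-value, Cx3cr1 stood at rank 38 and rank 36 in these comparisons. Leaving out any single library moved the log2 difference between 3.71 and 4.29 after bacteria and between 3.40 and 3.94 untreated. Without the 4 libraries numbered 1 it was 4.26 and 3.85.

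With bacteria Cx3cr1 fell by 1.92 log2 in KO cells (SE 0.37, edgeR adjusted p = 0.00277), which is 3.78-fold lower, and by 2.25 log2 in WT cells (SE 0.44, edgeR adjusted p = 0.00436), which is 4.77-fold lower. Libraries of the same number fell by 1.75, 1.75 and 2.17 log2 in KO and by 1.95, 1.94 and 2.70 log2 in WT cells. The groups did not overlap in either genotype. The WT fall did not pass with limma-voom, which gave -2.27 log2 (adjusted p = 0.0784, the highest of the alternatives, from 6.74e-07). The KO response minus the WT response was 0.34 log2, with a 95% interval from -0.88 to 1.55 (edgeR adjusted p = 0.999936). In KO cells library 1 was the lowest of 3 in both states. An antisense gene, Gm33858, shares 78 exon bases with Cx3cr1 and had from 2 to 52 counts per library. Reads of the pair cannot be told apart in the shared bases if strand was not used in counting. Cx3cr1 itself had from 22 to 2767 counts. The closest patterns over the 12 libraries were those of Kcnj10, Gna15 and Ntn4, with root mean square differences of 0.568, 0.593 and 0.610 log2, beside a median of 2.18 over 12284 genes.

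The bulk libraries cannot tell fewer cells of a type from less RNA per cell, and markers of other cell types moved with genotype beside Cx3cr1. Of all tested genes 9.21% were higher and 4.89% lower in KO cells after bacteria, and 9.5% were higher and 3.46% lower untreated. Of 14 monocyte markers, 9 were higher and 1 lower in KO than in WT cells after bacteria, and 11 were higher and 1 lower in untreated cells. The median differences were 2.62 and 2.51 log2, and no marker of this list was at 0 in any group. Their summed level ran from 1292 to 1834 CPM in KO and 1012 to 1219 CPM in WT cells after bacteria, and from 1178 to 2038 CPM in KO and 694 to 884 CPM in WT cells untreated. In that list Csf1r, the receptor for the monocyte growth factor M-CSF, differed by 2.81 log2 after bacteria and 2.74 log2 untreated. Ly6c2, a surface marker of classical monocytes, differed by 3.75 and 2.71 log2. These markers were chosen after their values were seen. The median response of the monocyte list was -0.01 log2 in KO and 0.11 log2 in WT cells. Nr4a1, in the same list, rose with bacteria by 0.75 log2 in KO and 0.83 log2 in WT cells. It then averaged 417 CPM in KO and 746 CPM in WT cells, opposite in direction to the list median between genotypes. Most of the WT sum after bacteria was therefore this 1 gene.

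The lists that follow stand beside the same shares of all tested genes, 9.21% higher and 4.89% lower after bacteria and 9.5% and 3.46% untreated. Of 11 tested macrophage markers 9 were higher in KO cells in each state and none was lower. Their sum ran from 1091 to 3708 CPM in KO and 385 to 711 CPM in WT cells after bacteria, and from 1185 to 3615 CPM in KO and 547 to 1017 CPM in WT cells untreated. Vsig4, a marker of resident macrophages, was at 0 in both WT groups and in untreated KO cells. KO library 1 had the lowest macrophage sum of its group in both states, as it had the lowest Cx3cr1. Neutrophil markers were higher in KO cells for 9 of 10 genes in each state. Erythroid markers were higher for 10 of 10 after bacteria and 9 of 10 untreated, with sums of 2005 to 5248 CPM in KO and 32.6 to 37.6 CPM in WT cells after bacteria. Untreated, the erythroid sums were 1986 to 4080 CPM in KO and 36.0 to 39.0 CPM in WT cells. The part of any of these cells in the Cx3cr1 difference was not tested. Of the cDC1 list, 2 of 12 were higher and 1 was lower in each state, and of 11 tested cDC2 markers 1 was higher and 1 lower after bacteria, and 3 were higher and 1 lower untreated.

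**Figure D2:**
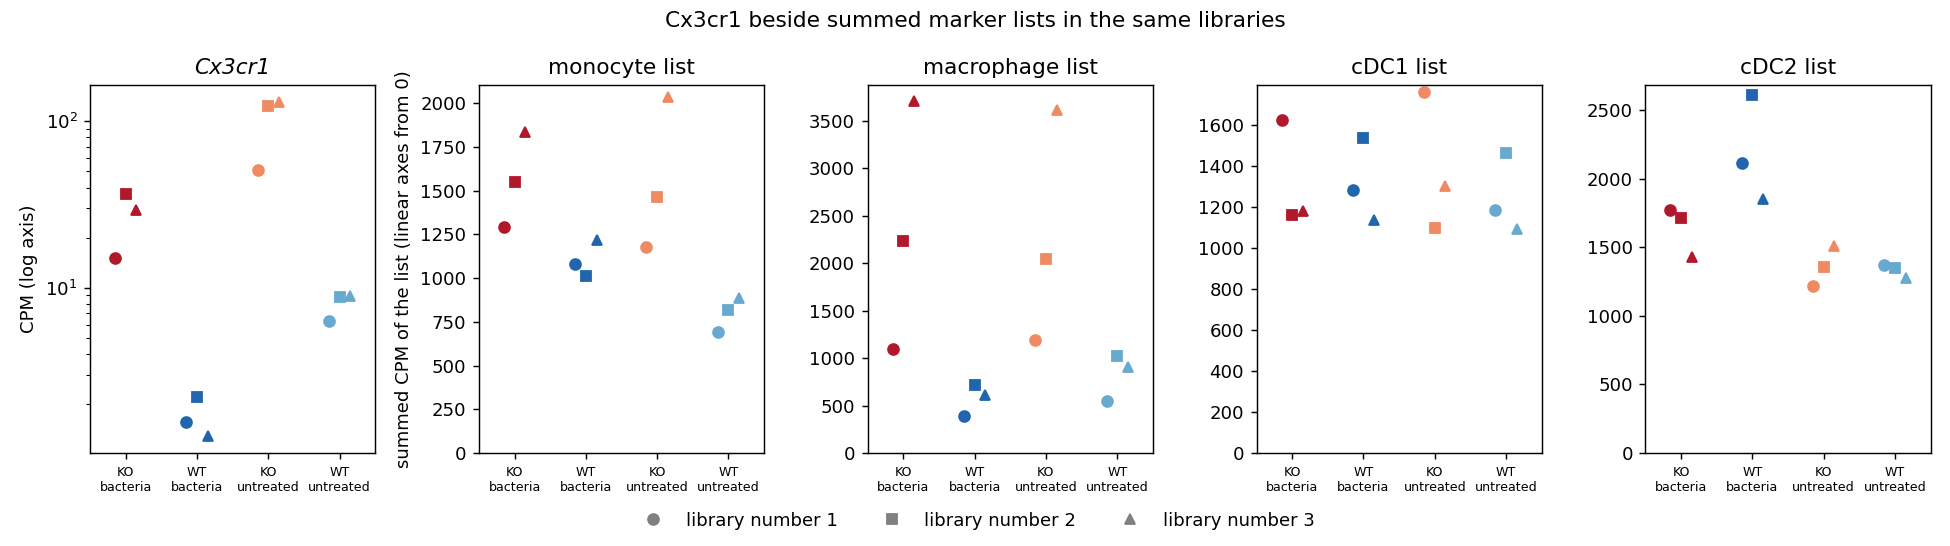
Cx3cr1 in CPM on a log axis, and the summed CPM of 4 marker lists on linear axes from 0, for the 12 libraries by group and library number. Cx3cr1, monocyte and macrophage sums all lie higher in KO than in WT libraries of the same treatment, while cDC1 sums overlap between genotypes in both states. The cDC2 sums lie lower in KO than in WT libraries after bacteria and overlap untreated. The median difference of the cDC2 list after bacteria was 0.12 log2, opposite in direction to its sum.

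Cxcr4 (ENSMUSG00000045382, mm10 chromosome 1, 128588199 to 128592293, minus strand) encodes the receptor for CXCL12, which keeps blood cells and their precursors in bone marrow. It had 198, 204 and 85.6 CPM in KO libraries with bacteria, against 305, 560 and 262 CPM in WT libraries. Untreated, it had 252, 190 and 203 CPM in KO libraries, against 399, 398 and 426 CPM in WT libraries. In each state every KO library lay below every WT library, and after bacteria KO library 3 was the lowest and WT library 2 the highest. Cxcr4 was lower in KO cells by -1.21 log2 after bacteria (SE 0.32, edgeR adjusted p = 0.0277), a 2.31-fold lower level. The untreated difference of -0.92 log2 did not pass (SE 0.32, edgeR adjusted p = 0.0814). The call after bacteria was lost without KO library 3 with bacteria (-0.90 log2, edgeR adjusted p = 0.0764) and without WT library 2 with bacteria (-0.80 log2, edgeR adjusted p = 0.0998). It was also lost without the 4 libraries numbered 1 (-1.502 log2, edgeR adjusted p = 0.0646), without the filter on low counts (-1.20 log2, edgeR adjusted p = 0.123) and between the 2 groups alone (-1.19 log2, edgeR adjusted p = 0.0949). Between the untreated groups alone the difference was -0.94 log2 and passed (edgeR adjusted p = 0.00428). Over all alternatives the adjusted p of edgeR, DESeq2 or limma ran from 0.00201 to 0.123 after bacteria and from 0.00428 to 0.276 untreated. Bacteria gave no call, with responses of -0.40 log2 in KO cells (SE 0.32, edgeR adjusted p = 0.403) and -0.12 log2 in WT cells (SE 0.32, edgeR adjusted p = 0.833). The difference of responses was -0.28 log2, with a 95% interval from -1.26 to 0.69. Close patterns were those of Adamts13 and Hyal1, at 0.265 and 0.292 log2.

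Between genotypes the 8 receptors gave few calls. After bacteria 1 was higher (Cx3cr1) and 1 lower (Cxcr4) in KO cells, where 14.1% of all tested genes passed (9.21% higher, 4.89% lower). Untreated, 1 was higher (Cx3cr1) and none was lower, where 13% of all tested genes passed (9.5% higher, 3.46% lower). The groups did not overlap for 4 receptors after bacteria (Ccr2, Ccr7, Cx3cr1 and Cxcr4) and 2 untreated (Cx3cr1 and Cxcr4), beside 28.8% and 37.4% of all tested genes. The median difference of the 8 was -0.55 log2 after bacteria and -0.29 log2 untreated, beside -0.01 and 0.01 over all tested genes. No receptor differed between the KO and the WT response by edgeR, 0 of the 8 at an unadjusted p under 0.05. In that comparison 0% of all tested genes passed, and 608 genes had an unadjusted p under 0.05. DESeq2 and limma-voom also called 0 of the 8. The comparisons share groups, so their values are given side by side and not as separate evidence.

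**Figure D3:**
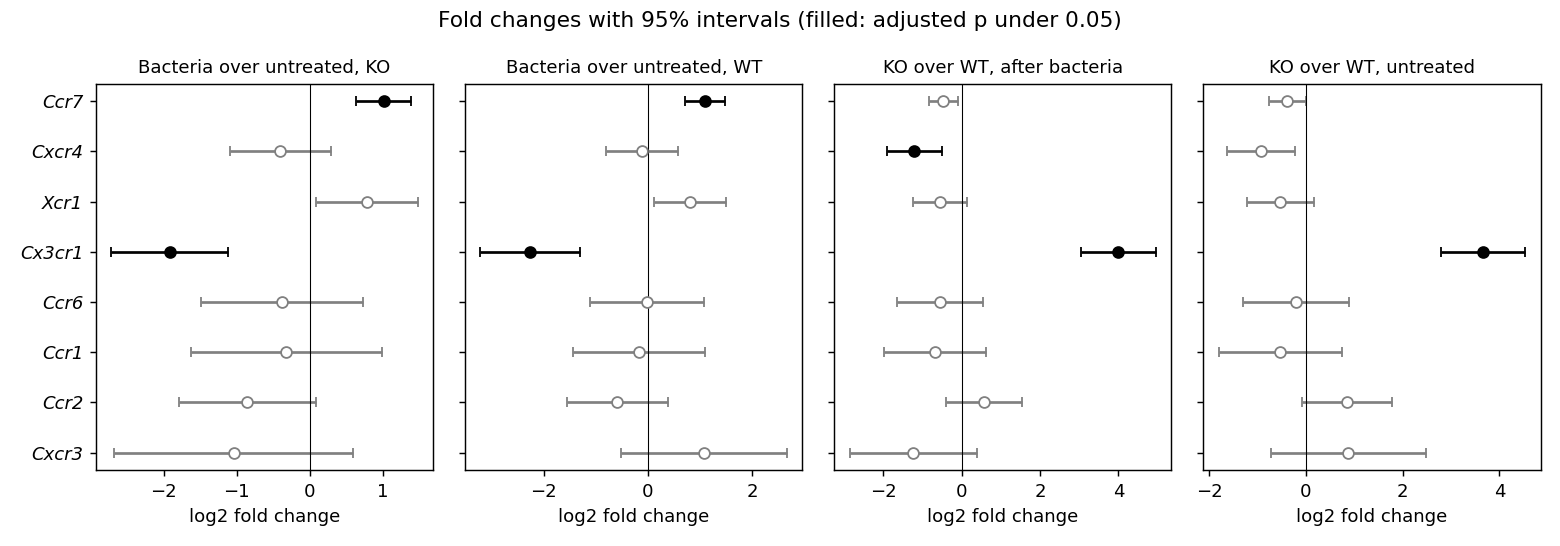
Log2 fold change of each receptor with its 95% interval in 4 comparisons, from the edgeR fit, with filled points where the adjusted p was under 0.05. Ccr7 and Cx3cr1 are filled on opposite sides of 0 in both responses, Cx3cr1 is filled to the right in both genotype comparisons, and Cxcr4 is filled to the left after bacteria.

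Xcr1 (ENSMUSG00000060509, mm10 chromosome 9, 123852315 to 123862029, minus strand) encodes the receptor for XCL1, a chemokine of activated T and NK cells, and marks cDC1. It had 94.0, 69.1 and 85.4 CPM in KO cells with bacteria, against 67.4, 40.5 and 37.1 CPM in untreated KO cells. WT cells had 92.2, 185 and 88.4 CPM with bacteria, against 54.2, 95.1 and 59.8 CPM untreated. Library 2 was the highest in both WT groups, and the KO groups did not overlap while the WT groups did. The responses of 0.78 log2 in KO cells (SE 0.32, edgeR adjusted p = 0.102) and 0.81 log2 in WT cells (SE 0.32, edgeR adjusted p = 0.0991) did not pass. Within library numbers Xcr1 was higher with bacteria in 6 of 6 pairs, by 0.48, 0.77 and 1.20 log2 in KO and by 0.77, 0.96 and 0.56 log2 in WT cells. With the library number as a block within genotype both responses passed, at 0.81 log2 in KO and 0.77 log2 in WT cells (edgeR adjusted p = 0.000188 and 0.000383). The labels do not say that these numbers pair libraries; the pairing rests on correlated deviations in the data. DESeq2 without the block also called both (adjusted p = 0.0457 in KO and 0.0453 in WT cells). Over all alternatives the adjusted p of edgeR, DESeq2 or limma ran from 0.000188 to 0.313 in KO and from 0.000383 to 0.427 in WT cells. The genotype differences were -0.56 log2 after bacteria and -0.53 untreated, and neither passed (edgeR adjusted p = 0.267 and 0.329). Slc22a5, Pmepa1 and Rps15a-ps7 had the closest patterns, at 0.209, 0.240 and 0.242 log2.

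Other cDC1 markers are the measure beside which Xcr1 can be read. With bacteria 11.6% of all tested genes rose and 11.5% fell in KO cells, and 10.6% rose and 8.07% fell in WT cells. Of the 12 markers none rose and 1 fell in KO cells, and 3 rose and 1 fell in WT cells, with medians of -0.02 and 0.02 log2. Those that rose in WT cells were Tlr3, a sensor of double-stranded RNA (1.88 log2), Cd8a (1.32) and Irf8, a transcription factor of cDC1 (0.95 log2). Rab7b, a regulator of endosomal traffic, fell by 1.94 log2 in KO and 2.19 log2 in WT cells. On the scale of library totals alone the Xcr1 response was 0.47 log2 in both genotypes, where the median of all genes was -0.38 in KO and -0.35 in WT cells.

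Ccr6 (ENSMUSG00000040899, mm10 chromosome 17, 8236043 to 8257141, plus strand) encodes the receptor for CCL20, which draws DCs and lymphocytes to mucosal lymphoid tissue. It had 15.8, 4.58 and 4.70 CPM in KO and 18.8, 6.74 and 11.5 CPM in WT libraries with bacteria. Untreated, it had 15.9, 8.98 and 7.78 CPM in KO and 17.3, 9.49 and 10.7 CPM in WT libraries. Library 1 was the highest in each of the 4 groups, and the groups overlapped. No comparison passed: the responses were -0.38 log2 in KO and -0.02 log2 in WT cells, and the genotype differences -0.55 after bacteria and -0.20 untreated. Without the 4 libraries numbered 1 Ccr6 was lower in KO than in WT cells after bacteria, at -0.97 log2 (edgeR adjusted p = 0.0426), and the adjusted p over all alternatives of this difference ran from 0.0426 to 0.906. Ccr6 is also expressed by B cells, and the B cell list of 10 genes summed to 512 to 639 CPM in KO and 266 to 470 CPM in WT cells after bacteria, and 426 to 583 CPM in KO and 214 to 466 CPM in WT cells untreated. The isolation removed cells that carry CD45R, a marker of B cells. Most of the sum was Ighm, the heavy chain of IgM, the 1 gene of the list called between genotypes: it was higher in KO cells by 0.71 log2 after bacteria and 0.76 log2 untreated (edgeR adjusted p = 0.042 and 0.0331). The other 9 genes together summed to 136, 14.7 and 15.9 CPM in KO and 116, 14.6 and 17.0 CPM in WT cells after bacteria, and to 112, 22.5 and 27.6 CPM in KO and 101.6, 13.4 and 15.7 CPM in WT cells untreated. As for Ccr6, library 1 was the highest in each of the 4 groups. Ms4a1, which encodes CD20, had 5.78 ± 5.39 CPM in KO and 9.03 ± 3.19 CPM in WT cells after bacteria and did not pass (edgeR adjusted p = 0.528). The median of the B cell list in that comparison was 0.35 log2 higher in KO cells, opposite in direction to Ms4a1. The part of these genes' cells in the Ccr6 counts was not tested. Its closest patterns were those of Gpr25, Mef2c and Dennd5b, at 0.249, 0.272 and 0.303 log2.

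Ccr1 and Ccr2, receptors of inflammatory chemokines, lie near each other on chromosome 9 and had low levels. Ccr1 (ENSMUSG00000025804, 123962124 to 123968692, minus strand) binds CCL3 and CCL5 among others. It had 3.89, 1.39 and 0.911 CPM in KO and 4.31, 2.38 and 3.32 CPM in WT libraries with bacteria. Untreated, it had 4.79, 2.14 and 0.901 CPM in KO and 3.99, 4.67 and 2.55 CPM in WT libraries. In both KO groups library 1 was the highest and library 3 the lowest, and all compared groups overlapped. Its responses were -0.32 log2 in KO and -0.17 log2 in WT cells, and its genotype differences -0.68 after bacteria and -0.53 untreated, with none past the threshold. The 95% interval of the difference after bacteria ran from -1.98 to 0.63 log2. Its closest patterns were those of Cbarp, Sult2b1 and Tmem120b, at 0.314, 0.387 and 0.395 log2.

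Ccr2 (ENSMUSG00000049103, 124101950 to 124113557, plus strand) encodes the receptor for CCL2 through which classical monocytes leave bone marrow. It had 3.41, 2.78 and 2.59 CPM in KO and 1.84, 1.86 and 2.18 CPM in WT libraries with bacteria. Untreated, it had 3.85, 9.82 and 2.32 CPM in KO and 2.29, 2.77 and 3.80 CPM in WT libraries. All KO libraries with bacteria lay above the WT libraries with bacteria, and untreated KO library 2 was the highest of the 12. The genotype differences were 0.58 log2 after bacteria (SE 0.45, edgeR adjusted p = 0.426) and 0.85 log2 untreated (SE 0.43, edgeR adjusted p = 0.235). The responses were -0.86 log2 in KO and -0.59 log2 in WT cells (edgeR adjusted p = 0.177 and 0.388). The transcripts of Ccr2 share 1.91% of their 50-base stretches with other genes, so reads there could be assigned to another gene or dropped. Its closest patterns were those of Gm11585, Chchd5 and Aaas, at 0.377, 0.400 and 0.404 log2.

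Cxcr3 (ENSMUSG00000050232, mm10 chromosome X, 101731535 to 101734269, minus strand) encodes the receptor for CXCL9, CXCL10 and CXCL11, best known on effector T cells and NK cells. It rested on few counts: 13, 6 and 2 in KO and 14, 25 and 13 in WT libraries with bacteria, and 31, 13 and 6 in KO and 14, 9 and 4 in WT libraries untreated. These correspond to 0.779, 0.348 and 0.140 CPM in KO and 0.989, 1.45 and 0.616 CPM in WT libraries with bacteria. Untreated, the levels were 1.73, 0.679 and 0.284 CPM in KO and 0.745, 0.461 and 0.227 CPM in WT libraries. One library was below the floor of 3 counts, KO library 3 with bacteria. The groups overlapped in all comparisons, and none passed. The response was -1.04 log2 in KO cells (SE 0.75, edgeR adjusted p = 0.355) and 1.07 log2 in WT cells (SE 0.73, edgeR adjusted p = 0.335). The genotype difference was -1.23 log2 after bacteria and 0.88 untreated (edgeR adjusted p = 0.302 and 0.500). T cell markers were tested for 10 of 11 genes and none passed in any comparison. Its closest patterns were those of Gm49376, Qpct and Gm24270, at 0.483, 0.541 and 0.550 log2.

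The other chemokine receptors of the genome, 16 in the list, showed the wider family around the 8. Of the 24 receptor genes together, 16 were tested. The 8 that were not tested had at most 48 counts each over the 12 libraries. With bacteria 11.6% of all tested genes rose in KO and 10.6% in WT cells. Among the 8 other tested receptors 3 rose in KO and the same number in WT cells with bacteria, and none fell. Ccrl2, an atypical receptor that binds chemerin, changed most, with 228 ± 32.5 CPM in KO and 206 ± 17.0 CPM in WT cells after bacteria, and 9.82 ± 4.57 CPM in KO and 11.1 ± 1.99 CPM in WT cells untreated. Its response was 4.54 log2 in KO and 4.21 log2 in WT cells (edgeR adjusted p = 1.36e-06 and 3.56e-06). Cxcr5, the receptor for CXCL13 of B cell follicles, rose by 2.45 log2 in KO and 2.29 log2 in WT cells (edgeR adjusted p = 0.0039 and 0.00803).

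Between genotypes Cxcr2, a receptor of neutrophils, was higher in untreated KO cells, at 2.90 ± 1.93 CPM in KO and 0.374 ± 0.460 CPM in WT cells (2.93 log2, edgeR adjusted p = 0.0293). The neutrophil sum in untreated cells ran from 120 to 886 CPM in KO and 13.5 to 16.9 CPM in WT libraries, and its part in the Cxcr2 difference was not tested. Xcr1, Ccr1 and Ccr2 lie within 1 Mb of Ccr9, Cxcr6, Ccr1l1 and Ccr3 on chromosome 9. The tested genes Ccr9, Cxcr6, Ccr3, Ccr1, Ccr2 and Xcr1 were called in none of the 4 comparisons of groups. Ccr8 lies 22235 bases from Cx3cr1 and had at most 6 counts in a library.

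**Figure D4:**
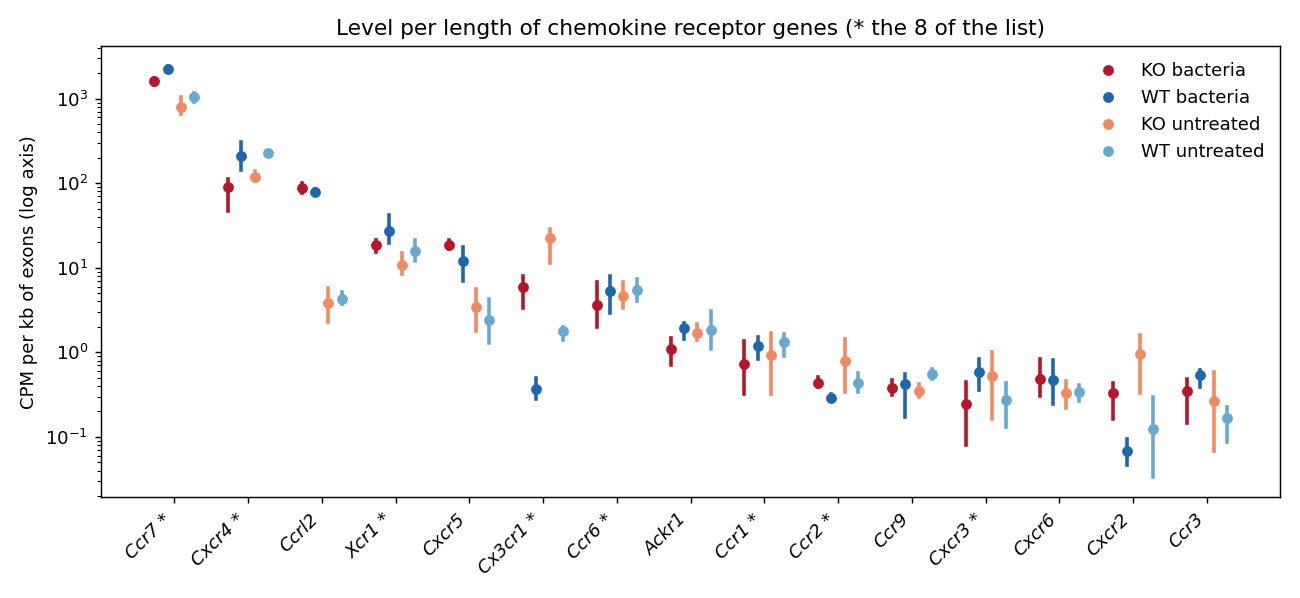
Level of chemokine receptor genes in CPM per kb of exons on a log axis, with points for group means and lines for the range of 3 libraries; stars mark the 8 receptors described. Ccr7 lies above all others in each group, and Ccrl2 and Cxcr5 lie higher in both groups with bacteria.

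The ligands of the 8 receptors were measured in the same libraries. Of 18 in the list 11 were tested, and with bacteria 6 rose in KO and 7 in WT cells, with none lower. Of all tested genes 11.6% rose in KO and 10.6% in WT cells. Of the ligands of Cxcr3, Cxcl10 reached 1668 ± 740 CPM in KO and 971 ± 160 CPM in WT cells with bacteria, against 13.04 ± 2.18 CPM in KO and 18.1 ± 10.2 CPM in WT cells untreated. Its response was 7.00 log2 in KO and 5.74 log2 in WT cells (edgeR adjusted p = 2.2e-06 and 1e-05), and that of Cxcl11 was 7.15 and 6.14 log2. Cxcl9, the other Cxcr3 ligand in the list, rose by 2.04 log2 in KO and 1.22 log2 in WT cells (edgeR adjusted p = 0.00032 and 0.0101). Of the ligands of Ccr1, Ccl3 rose by 4.40 log2 in KO and 3.55 log2 in WT cells, and Ccl5 by 3.59 log2 in KO and 2.75 log2 in WT cells. Ccl19 and Ccl21c, ligands of Ccr7, and Ccl20, the ligand of Ccr6, had no count in any group. Copies of Ccl21 are near-identical and can share reads.

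Cx3cl1, the ligand of Cx3cr1, was lower in KO cells, opposite in direction to its receptor. It averaged 7.61 ± 4.55 CPM in KO and 22.2 ± 2.62 CPM in WT cells after bacteria, and 8.72 ± 1.62 CPM in KO and 24.9 ± 5.75 CPM in WT cells untreated (SD, n = 3). The difference was -1.54 log2 after bacteria (SE 0.33, edgeR adjusted p = 0.0106) and -1.52 log2 untreated (SE 0.33, edgeR adjusted p = 0.0108), with no overlap of groups in either state. Ccl9, which binds Ccr1, was lower in KO cells by -1.46 log2 after bacteria and -1.67 log2 untreated (edgeR adjusted p = 0.00677 and 0.00362). Ccl5 was lower in untreated KO cells by -1.30 log2 (edgeR adjusted p = 0.00502), and its difference of -0.47 log2 after bacteria did not pass. In all, 2 of the 11 tested ligands were lower in KO cells after bacteria and 3 untreated, and none was higher. Of all tested genes 4.89% were lower and 9.21% higher after bacteria, and 3.46% lower and 9.5% higher untreated.

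Genes that act downstream of chemokine receptors were also listed, and 35 were tested. With bacteria 5 rose and 9 fell in KO cells, where 23% of all tested genes passed (11.6% higher, 11.5% lower). In WT cells 7 rose and 3 fell, where 18.7% of all tested genes passed (10.6% higher, 8.07% lower). Rgs1, which shuts off G protein signals of chemokine receptors, rose by 2.07 log2 in KO and 1.94 log2 in WT cells (edgeR adjusted p = 2.89e-05 and 7.29e-05). Rgs3, of the same family, fell by 1.42 log2 in KO and 1.18 log2 in WT cells (edgeR adjusted p = 0.00298 and 0.0106). Between genotypes 2 were higher and 4 lower in KO cells after bacteria, and 7 higher and 2 lower untreated. Of all tested genes 14.1% passed after bacteria and 13% untreated. Rac2, a GTPase of blood cells that drives actin during migration, was higher in KO cells by 1.60 log2 after bacteria and 1.81 log2 untreated (edgeR adjusted p = 0.00459 and 0.00246). Arrb1, which uncouples and internalises receptors, was higher by 1.23 log2 after bacteria and 1.33 log2 untreated (edgeR adjusted p = 0.000727 and 0.000477). Rgs1 was lower in KO cells by -0.74 log2 after bacteria and -0.87 log2 untreated (edgeR adjusted p = 0.0332 and 0.0156).

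Receptors of other chemoattractants were described as a last group, with 14 of 16 tested. With bacteria 5 rose and 1 fell in KO cells, and 4 rose and none fell in WT cells. Of all tested genes 11.6% rose and 11.5% fell in KO, and 10.6% rose and 8.07% fell in WT cells. Gpr183, an oxysterol receptor that positions splenic cDC2, averaged 755 ± 63.6 CPM in KO and 1072 ± 106 CPM in WT cells with bacteria, against 245 ± 30.3 CPM in KO and 343 ± 80.9 CPM in WT cells untreated. It rose by 1.62 log2 in KO and 1.64 log2 in WT cells (edgeR adjusted p = 2.8e-05 and 4.04e-05). Between genotypes 4 were higher and 2 lower in KO cells in each state. Of all tested genes 9.21% were higher and 4.89% lower after bacteria, and 9.5% higher and 3.46% lower untreated. The formyl peptide receptors Fpr1 and Fpr2, which sense bacterial peptides and are abundant on neutrophils and monocytes, were higher in KO cells by 4.83 and 4.77 log2 after bacteria and by 4.79 and 5.03 log2 untreated. The neutrophil and monocyte sums given above moved with them, and their part was not tested.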

How the data were processed

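The authors deposited raw counts per gene for 12 libraries, with gene coordinates on mm10. Per the submitters' processing notes, base calls came from CASAVA 1.8 and reads were aligned with HISAT2 (no version stated). The program, strand use and annotation of the counting step were each not given in the sources used here. Per the labels' protocols, libraries used random hexamer primers and paired-end NovaSeq sequencing.

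The 8 receptors and all lists were chosen with earlier results of these data known. Counts were tested with edgeR 4.0.16 in R 4.3.3: 14293 genes kept by filterByExpr, TMM factors, and a robust quasi-likelihood fit over 12 libraries with a term per group. Contrasts were bacteria over untreated in KO and in WT, KO over WT in each state, and the difference of responses. Adjustment followed Benjamini and Hochberg over all tested genes within a contrast, with a threshold of 0.05. The SE was derived from the fold change and its F statistic. Levels are CPM with TMM factors, divided by exon length in kb where genes are compared; the deposited lengths equalled GENCODE M21 exon lengths for the 8. The script was tested on simulated counts.

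Named genes were the 8 receptors, up to 4 genes per list and contrast with the largest change among those called (mean of at least 1 CPM), the 3 closest patterns per receptor and cluster neighbours within 1 Mb. Other names are examples chosen after their values were seen. Some genes that the rule names are not reported here.

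Same-numbered libraries of a genotype deviated together across treatment, with r from 0.226 to 0.530 in 6 pairs, so the fit with the number as a block within genotype is given where it changed a call. That pairing comes from the data, not the labels. Same-numbered KO and WT libraries deviated together after bacteria (r from 0.115 to 0.314), but untreated 1 of 3 pairs had r of 0.0787. They were not taken as paired between genotypes. The block over all groups is given where it changed a genotype call. It assumes such a pairing in both states, since all groups share its effect of the number. No pair of libraries agreed within sampling noise. Alternatives were DESeq2 size factors, library totals, the DESeq2 1.42.0 Wald test, limma-voom 3.58.1, no filter, only the groups compared, blocks, the libraries numbered 1 left out, and each library left out. Promoter windows came from RefSeq (GRCm38.p6). Figures used matplotlib 3.10.9 and pandas 2.3.3.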

Additional observations from a re-analysis of the deposited data

Results flagged for a closer look

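Cxcr3 moved in opposite directions with bacteria in the 2 genotypes, in every library number. With bacteria it was lower in KO cells by -1.05, -0.78 and -0.65 log2 and higher in WT cells by 0.36, 1.45 and 1.10 log2 (numbers 1 to 3). The KO response minus the WT response was -2.11 log2 (SE 1.05, 95% interval -4.39 to 0.17), and this difference did not pass (edgeR adjusted p = 0.999936). The counts behind it were between 2 and 31 per library.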

How the results depend on the processing

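The receptors called kept their number within 1.5 times in the other settings, with these exceptions, whose cause was not tested unless stated. In WT cells 1 of 8 was called by limma-voom, against 2 in the edgeR fit. Untreated, 2 receptors differed between KO and WT under DESeq2's Wald test, between the 2 groups alone (both added Cxcr4), without the libraries numbered 1 and with a replicate block over all groups (both added Ccr7), against 1. Leaving out single libraries gave 1 to 2: Cxcr4 was added without KO library 3 or WT library 2 with bacteria, and Ccr7 without untreated KO library 1. After bacteria the replicate block over all groups added Ccr7 (3 called, against 2). There, 1 was called without the filter and between the 2 groups alone, against 2, and leaving out single libraries gave 1 to 3: Cxcr4 was lost without KO library 3 or WT library 2 with bacteria, and Ccr7 was added without untreated KO library 1. Without the libraries numbered 1, 3 were called (Ccr6, Ccr7 and Cx3cr1). For the KO response single libraries gave 2 to 3, with Xcr1 added without untreated KO library 1 or WT library 2 with bacteria.

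Of 816 values for 40 single-gene results, 759 kept direction and side of the threshold, 6 lost a call, 17 gained one and 34 changed sign; every value that changed sign belonged to a result that was not called. Leaving out single libraries gave these log2 ranges: differences of responses of -0.98 to 0.68 (Ccr1), -0.59 to 0.55 (Ccr2), -1.20 to 0.088 (Ccr6), -0.17 to 0.21 (Ccr7), -0.48 to 0.13 (Cxcr4) and -0.28 to 0.41 (Xcr1); KO responses of -1.15 to 0.49 (Ccr1) and -1.22 to 0.035 (Ccr6); WT responses of -0.41 to 0.021 (Ccr1), -0.46 to 0.27 (Ccr6) and -0.53 to 0.087 (Cxcr4); and untreated KO minus WT of -0.63 to 0.068 (Ccr6) and -0.054 to 1.31 (Cxcr3). The Ccr6 response in WT was 0.00022 with DESeq2. Without the libraries numbered 1 the difference of responses was 0.066 for Ccr7 and 0.18 for Xcr1. For Xcr1 it was 0.062 with limma-voom, 0.016 with a replicate block over all groups and 0.049 with the replicate block within genotype. That block added Xcr1 to both responses (3 called in each) and changed no other call. Counts of 2 to 31 limit what can be seen for Cxcr3.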
